A study of Mus musculus with 12 samples.

Results

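The 10 genes described here, Elovl2, Elovl4, Elovl5, Elovl6, Fads1, Fads2, Acsl6, Lpcat1, Agpat3 and Mfsd2a, act in the supply and handling of polyunsaturated fatty acids for photoreceptor membranes. They were chosen by symbol, as the 10 rows of that name among the 56748 genes of the table, a rule that uses no measured value, although the genes were proposed with earlier results of these data known. RNA was sequenced from mouse retinas at 2 weeks of age in 12 libraries, 3 for each of 4 groups. The groups were rod TRAP RNA and whole-retina RNA from littermate controls of genotype RiboTag;Shp2fl/+;i75-Rod-Cre (called Het here) and from mice of genotype RiboTag;Shp2fl/fl;i75-Rod-Cre that lack Shp2 in rods (called KO). All mice were homozygous for RiboTag and carried Cre under the rhodopsin promoter, so the controls also lose Shp2 from 1 of their alleles in rods, although their sample titles call them wt. Ribosomes carry an HA tag only where Cre has acted. TRAP (translating ribosome affinity purification) pulls down those ribosomes after cycloheximide perfusion, so the rod libraries measure ribosome-bound mRNA and the retina libraries total mRNA of the lysate. The 2 kinds of library therefore differ in more than the cell type.

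Retinal discs are among the membranes richest in docosahexaenoic acid (DHA), the longest common omega-3 fatty acid of phospholipids, and rods also hold very long chain polyunsaturated fatty acids. DHA can be taken up from the blood as a lysophospholipid or made from shorter dietary fatty acids by rounds of desaturation (FADS enzymes) and elongation (ELOVL enzymes), with a last shortening step in peroxisomes. The acid is then activated to its CoA ester and placed in phospholipids by acyltransferases. In the retina this work is shared between photoreceptors, Müller glia, the pigment epithelium and the blood vessels.

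The table holds whole numbers that had been scaled before deposit, with totals of 16263948 to 16265259 in rods and 14525527 to 14527992 in retina. The reads behind them were estimated as 11893198 to 25276238 per rod library and 9979751 to 19229639 per retina library. Values below are the deposited values in the order of replicates 1, 2 and 3. TMM (trimmed mean of M values) leaves out the genes with the most extreme ratios and assumes that most genes do not differ. TMM-scaled values are given as mean ± SD with n = 3. These levels come from 1 scaling of all 12 libraries, whereas each comparison of 2 groups was scaled anew over its own 6 libraries, so a fold change can differ from the ratio of the levels printed. A call needed a limma adjusted p under 0.05 together with an absolute log2 fold change above 0.5. The p-values measure the spread between these libraries, since nothing states which came from separate animals. In the rod libraries of Het mice 18 of 18 rod markers were called higher than in retina, with a median log2 fold change of 1.78. Müller glia markers were called lower for 11 of 11, with a median of -4.89. Cone markers fell less, with 10 of 11 called lower, 1 called higher and a median of -1.03. The part of cones in the rod values was not tested. Ptpn11, which encodes Shp2, had values of 2511, 2439 and 2431 in rods of Het mice against 1735, 2139 and 1971 for KO. It was lower in each KO rod library, by a log2 fold change of -0.28 (SE 0.09, limma adjusted p = 0.0408), and reads of exons outside the floxed part cannot be told from intact mRNA.

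In Het rods against Het retina all 10 genes were called, 5 higher and 5 lower. Among the 16161 genes tested, 21.3% were called higher and 36.7% lower. Most genes were thus called, whereas TMM assumes that most do not differ. The genes higher in rods were the late elongases Elovl4 and Elovl2, the acyl-CoA synthetase Acsl6 and the acyltransferases Agpat3 and Lpcat1. Those lower in rods were the desaturases Fads1 and Fads2, the elongases Elovl5 and Elovl6 and the transporter Mfsd2a. Mfsd2a passed the filter for low values through retina alone, so its call and its lack of overlap could only go that way. Lens markers ranged from 0.000971% to 1.67% of the total between Het retina libraries. Every gene of the 10 that could be tested stayed called with any library left out. TMM-scaled rod and retina values overlapped for none of the 10 genes, where 68.4% of all genes tested had no overlap. The same 5 and 5 genes were called in KO rods against KO retina, where 25.6% of 16167 genes were called higher, 36.4% were called lower and 72% had no overlap. Scaling by library total alone in place of TMM lowered the median log2 fold change of all genes by 0.41 in Het and by 0.53 in KO. The share of calls that were higher in rods was then 13.5% in place of 36.8% in Het and 12.5% in place of 41.3% in KO, and all 10 genes stayed called in the same direction.

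Promoters of 9 of the 10 genes were in the RefSeq table for GRCm38.p6, while Fads1 is named only. These genes lie on chromosome 3 (Elovl6), 4 (Mfsd2a), 9 (Elovl4 and Elovl5), 10 (Agpat3), 11 (Acsl6), 13 (Elovl2 and Lpcat1) and 19 (Fads2). The 250 bases before each start were searched on both strands for TAATCC, the core bound by the photoreceptor factor Crx, for TGCTGA, a part of the Nrl site, and for CACGTG, the E-box bound by SREBP and ChREBP factors. TAATCC occurred in 6.25% of all 32851 promoters, TGCTGA in 16.1% and CACGTG in 6.02%. Of the 9 genes, 1 held TAATCC (Lpcat1, on the reverse strand, with its first letter 230 bases before the start), 0 held TGCTGA and 1 held CACGTG (Elovl5, 161 bases before the start). A match is a description of these letters and no evidence of binding. The windows of these genes are shown with that of Elovl4, the highest per kb of transcript in Het rods, which held none of the 3 motifs. Capitals mark the motif.
Lpcat1, chr13:73466981-73467230, plus strand: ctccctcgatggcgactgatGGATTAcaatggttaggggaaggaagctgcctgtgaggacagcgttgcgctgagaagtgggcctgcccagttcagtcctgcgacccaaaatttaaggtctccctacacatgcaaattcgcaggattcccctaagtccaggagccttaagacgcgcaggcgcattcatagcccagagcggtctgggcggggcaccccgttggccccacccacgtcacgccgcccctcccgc
Elovl5, chr9:77917115-77917364, plus strand: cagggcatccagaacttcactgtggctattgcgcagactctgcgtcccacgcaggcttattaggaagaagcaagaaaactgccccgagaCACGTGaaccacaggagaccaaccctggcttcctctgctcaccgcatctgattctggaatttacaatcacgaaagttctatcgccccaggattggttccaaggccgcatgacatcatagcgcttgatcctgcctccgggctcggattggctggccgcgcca
Elovl4, chr9:83806306-83806555, minus strand: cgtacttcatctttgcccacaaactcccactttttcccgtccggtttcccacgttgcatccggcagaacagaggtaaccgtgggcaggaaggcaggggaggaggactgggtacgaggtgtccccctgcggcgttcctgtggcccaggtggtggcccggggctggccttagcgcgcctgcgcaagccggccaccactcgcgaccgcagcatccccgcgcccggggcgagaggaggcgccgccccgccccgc
The window of Elovl4 had 69.6% GC, that of Lpcat1 60.8% and that of Elovl5 55.6%, against a median of 52.4% for all promoters.

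**Figure D1:**
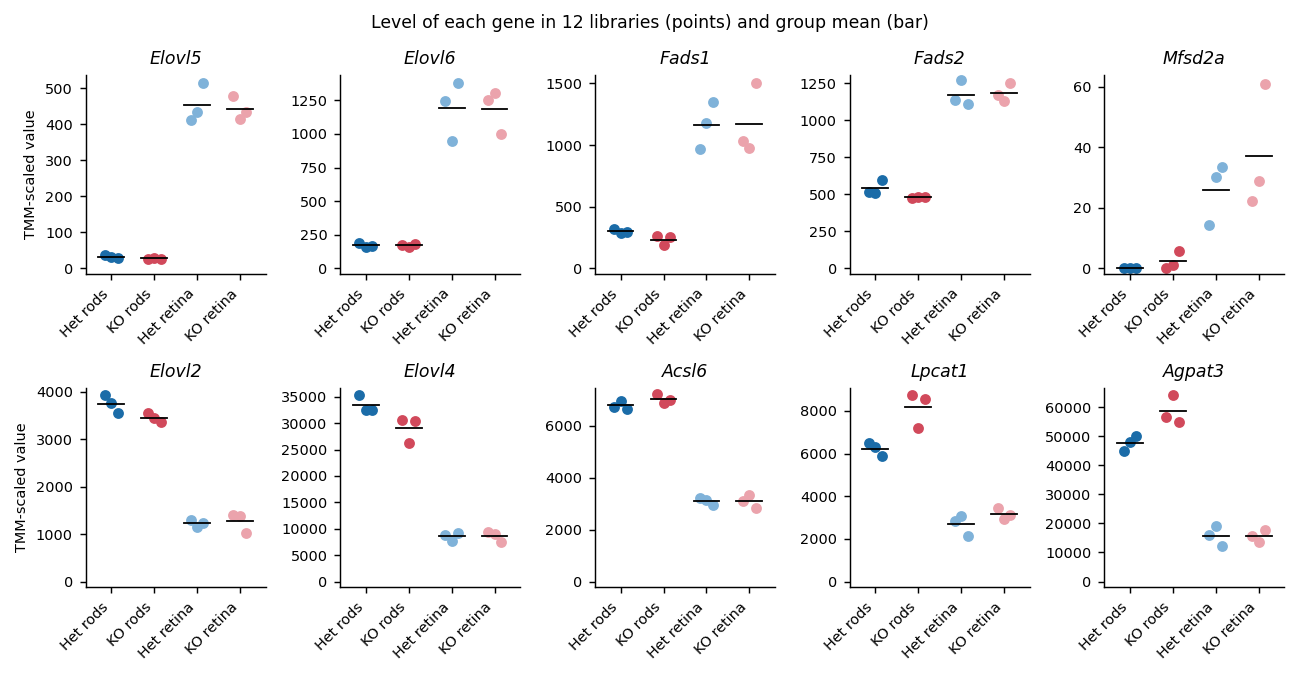
TMM-scaled value of each of the 10 genes in the 12 libraries, with 1 point per library, a bar at the group mean and an axis of its own for each gene, drawn from 0. In the upper row, the 5 genes with lower values in rods (Mfsd2a at 0 in all Het rod libraries); in the lower row, the 5 genes with higher values in rods, where Lpcat1 and Agpat3 lie higher in KO than in Het rods.

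Mfsd2a (ENSMUSG00000028655) encodes the sodium-dependent transporter that carries DHA as a lysophospholipid across the blood-brain and blood-retina barriers. Het rods had it listed at 0, 0 and 0, and KO rods at 0, 1 and 5. In Het retina it stood at 17, 35 and 38 and in KO retina at 26, 33 and 67. No read was seen in any Het rod library, so only a bound can be given. With 3 reads allowed in each Het rod library, its level there was at least 7.43-fold lower than in Het retina. It was called lower in rods in both genotypes by limma (adjusted p = 2.99e-05 in Het and 0.000751 in KO), and the fitted sizes depend on the pseudocount. Only retina libraries reached the filter level of 10, so the gene could not have been called higher in rods. These p-values add no support to the values listed. The highest value, 67, came from KO retina replicate 3. In that library the 11 markers of the retinal pigment epithelium summed to 0.0924% of the total against 0.00436% and 0.00998% in the other KO retinas, and the 12 lens markers in the table to 5.59% against 0.446% and 1.08%. The vascular endothelium, where Mfsd2a is known to act, had 8 of 9 markers called lower when Het rods were set against retina. Its markers summed to 0.0117% to 0.0166% of the total in Het rods, with 2 of 9 at 0 in every library, to 0.0321% to 0.0421% in Het retina and to 0.0309% to 0.0448% in KO retina, highest in replicate 3. Most of the rod sum was Slc2a1, a glucose transporter with mean TMM-scaled values of 2598 in Het rods and 1652 in Het retina and the marker not called lower, and the list had a median log2 fold change of -3.73. The part of any of these cells in the values was not tested. In bulk RNA, fewer cells of a type and less RNA per cell cannot be told apart, here and in every comparison with whole retina.

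Fads2 (ENSMUSG00000024665) encodes the first and rate-limiting desaturase of the pathway, and Fads1 (ENSMUSG00000010663) the desaturase that acts after the next elongation. Rods held Fads2 at 448, 443 and 515 in Het against 409, 426 and 416 for KO. In retina it stood at 1337, 1476 and 1267 in Het and at 1377, 1295 and 1376 in KO. Rod values lay well under retina values in both genotypes, with log2 fold changes of -1.29 (SE 0.13) in Het and -1.32 (SE 0.11) in KO. For Fads1, Het rods held 277, 252 and 255, and KO rods 222, 165 and 218. Het retina held 1139, 1375 and 1538, and KO retina 1221, 1121 and 1655. The gap was wider than for Fads2, with log2 fold changes of -2.11 (SE 0.15) in Het and -2.34 (SE 0.20) in KO. Per kb of transcript and within a library, Fads1 stood at 0.511 ± 0.056 times the level of Fads2 in Het rods and at 0.910 ± 0.173 times in Het retina (SD, n = 3 each). In KO the ratio was 0.441 ± 0.077 in rods and 0.897 ± 0.172 in retina. The ranges did not overlap in either genotype. For single genes 68.4% of all tested had no overlap in Het, and no such share was taken for ratios. Markers of Müller glia were 0.379% to 0.538% of the total in Het retina and 0.0134% to 0.0227% in Het rods, and their part in the Fads1 and Fads2 values was not tested.

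Elovl5 (ENSMUSG00000032349) elongates the shorter polyunsaturated chains after the first desaturation, and Elovl6 (ENSMUSG00000041220) elongates saturated and monounsaturated chains. Elovl5 was low in rods, at 31, 28 and 24 in Het and 23, 26 and 22 in KO. In retina it was at 484, 505 and 585 in Het and 562, 476 and 475 in KO. Its log2 fold change of -3.91 (SE 0.20) in Het put the rod level at 0.0663 times the retina level, and in KO the change was -3.94 (SE 0.18). For Elovl6, Het rods held 165, 137 and 142, and KO rods 150, 141 and 155. Retina libraries held 1463, 1100 and 1574 in Het and 1477, 1499 and 1099 in KO. The log2 fold changes of Elovl6 were -2.95 (SE 0.17) in Het and -2.79 (SE 0.14) in KO. None of the rod libraries reached the lowest retina library for either gene.

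Elovl2 (ENSMUSG00000021364) elongates the longer polyunsaturated chains that lead to DHA, and Elovl4 (ENSMUSG00000032262), the gene mutated in Stargardt-like macular dystrophy, makes the very long chain fatty acids. Het rods held Elovl2 at 3410, 3287 and 3076, and KO rods at 3041, 3053 and 2913. In retina it was at 1535, 1334 and 1412 in Het and 1653, 1582 and 1121 in KO. Its log2 fold change in rods was 1.44 in both genotypes (SE 0.10 in Het and 0.14 in KO). For Elovl4, Het rods held 30556, 28267 and 28117, and KO rods 26208, 23289 and 26333. Retina held 10370, 9013 and 10549 in Het and 10955, 10289 and 8171 in KO. Elovl4 had the largest rise in Het rods among the 10 genes, with a log2 fold change of 1.79 (SE 0.10), or 3.45-fold, and of 1.75 (SE 0.13) in KO.

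Elongase mRNA levels can be set side by side per kb of the longest annotated transcript. This removes the effect of length only where that transcript is the one present. Of the summed level of Elovl1 to Elovl7 in Het rods, Elovl4 made up 91.6% ± 0.23, Elovl2 8.04% ± 0.23 and Elovl5 0.0941% ± 0.0084. In Het retina the shares were 79.5% ± 0.42 for Elovl4, 8.90% ± 0.54 for Elovl2 and 4.52% ± 0.43 for Elovl5 (SD, n = 3). The share of Elovl4 was thus higher in rods with no overlap, while that of Elovl2 overlapped narrowly. The ratio of Elovl2 to Elovl5 within a library was 79.7, 85.0 and 92.9 in Het rods against 2.30, 1.91 and 1.75 in Het retina. In KO libraries it was 95.8, 85.1 and 95.9 in rods and 2.13, 2.41 and 1.71 in retina. In both genotypes every rod library lay far above every retina library. How often such shares and ratios separate among other genes was not taken.

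Acsl6 (ENSMUSG00000020333) encodes an acyl-CoA synthetase with a preference for DHA. Het rods held it at 5836, 6079 and 5774, and KO rods at 6222, 6107 and 6075. In retina it was at 3778, 3641 and 3347 in Het and 3655, 3856 and 3126 in KO. The log2 fold change was 0.96 (SE 0.10) in Het and 1.17 (SE 0.11) in KO, and 0.55 and 0.63 when libraries were scaled by their totals alone. Acsl6 made up 43.5% ± 1.89 of the summed level per kb of the long-chain acyl-CoA synthetases Acsl1, Acsl3, Acsl4, Acsl5 and Acsl6 in Het rods and 22.9% ± 3.59 in Het retina, where Acsl3 led with 57.6% ± 5.23 (SD, n = 3).

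Lpcat1 (ENSMUSG00000021608) encodes the lysophosphatidylcholine acyltransferase that is lost in the rd11 mouse with retinal degeneration, and Agpat3 (ENSMUSG00000001211) the acyltransferase that places DHA in phosphatidic acid. Het rods held Lpcat1 at 5616, 5480 and 5111, and KO rods at 7512, 6371 and 7416. In retina it was at 3333, 3591 and 2438 in Het and 4054, 3373 and 3445 in KO. Its log2 fold change in rods against retina was 1.06 (SE 0.15) in Het and 1.34 (SE 0.12) in KO, and 0.64 and 0.80 with totals alone. For Agpat3, Het rods held 38887, 41887 and 43397, and KO rods 48794, 56771 and 47629. Retina held 18843, 22218 and 13959 in Het and 18443, 15606 and 19334 in KO. The log2 fold changes of Agpat3 were 1.45 (SE 0.17) in Het and 1.89 (SE 0.13) in KO. Within its family of Agpat1 to Agpat5, Agpat3 held 93.1% ± 0.46 of the summed level per kb in Het rods and 85.2% ± 1.02 in Het retina (SD, n = 3). Genes annotated over Acsl6, Agpat3, Elovl6 and Fads1 reached listed values of at most 20, 7, 2 and 0 in any library. For n-R5s77, which is also annotated over Agpat3, no value was listed. How reads on both genes were counted is not given in the sources used here, so the values of these 4 genes are uncertain to that extent.

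**Figure D2:**
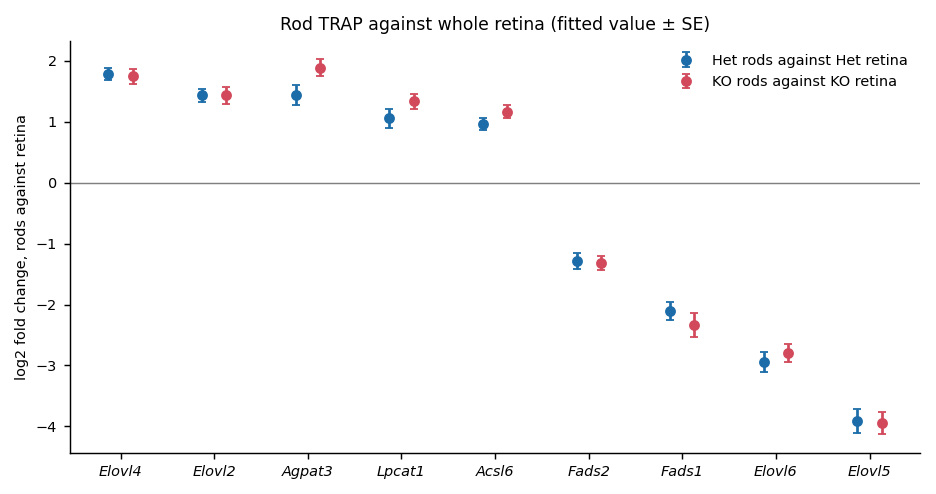
Fitted log2 fold change of rods against retina for 9 of the 10 genes, in Het (blue) and KO (red), with bars of 1 SE; Mfsd2a is left out because it was at 0 in all Het rod libraries. In Het, 5 genes lie above 0, from 0.96 to 1.79, and 4 lie below, from -1.29 to -3.91, with the same order of signs in KO.

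Ordered by TMM-scaled level per kb in Het rods, Elovl4 (11126 ± 547, rank 45 of 16935 genes) and Agpat3 (7974 ± 437, rank 71) led, followed by Lpcat1 (1694 ± 81.0), Acsl6 (1170 ± 27.6) and Elovl2 (977 ± 50.5). Far below came Fads2 (171 ± 15.1), Fads1 (87.0 ± 4.76), Elovl6 (28.7 ± 2.97), Elovl5 (11.5 ± 1.46) and Mfsd2a at 0. No neighbours in this order had ranges of 1 SD that met. In Het retina the order was flatter. Elovl4 stood at 2868 ± 259 and Agpat3 at 2640 ± 573, which did not differ beyond their spread, and Lpcat1 was at 731 ± 133 and Acsl6 at 533 ± 24.2. Fads2 at 372 ± 26.7, Fads1 at 337 ± 55.3 and Elovl2 at 320 ± 20.7 came next, with Fads1 within 1 SD of both neighbours. Elovl6 at 200 ± 37.5 and Elovl5 at 163 ± 19.2, whose ranges of 1 SD met, and Mfsd2a at 12.1 ± 4.69 (SD, n = 3 throughout) were lowest. In KO rods Agpat3 (9803 ± 818) and Elovl4 (9684 ± 793) could not be ranked against each other, whereas in Het rods Elovl4 was above Agpat3. No test compared this order between genotypes. The GC trend described below was not removed from these levels, and Agpat3 has 54.2% GC and Elovl4 43.3%.

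Across the 12 libraries, the genes whose centred log2 values lay closest to those of Elovl4 were Fam3c (root mean square difference 0.07) and Cpe (0.08), of 12100 genes searched. For Elovl2 they were Ipmk and Lrit1 (both 0.06), for Acsl6 Eif2ak3 and Tmem150c (both 0.05), and for Agpat3 Unc119 (0.08) and Rtbdn (0.09). Lpcat1 was closest to Nolc1 (0.11) and Icmt (0.12), and Fads2 to Anapc5 (0.08) and A630052C17Rik (0.10). The remaining genes had looser neighbours, Pik3ip1 (0.15) and Rnf213 (0.19) for Fads1, Plppr4 (0.13) and Dzank1 (0.15) for Elovl6, and Ctnna2 (0.19) and Nav2 (0.20) for Elovl5. Mfsd2a had no near neighbour, with Gsto1 (0.38) and Clu (0.39) the closest. The 12 libraries fall into the rod and retina fractions, and each of these pairs of genes shares that split.

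The other genes of the pathway, 123 in 10 lists that exclude the 10 genes, did not move as blocks in Het rods against Het retina. Over all genes tested there, 21.3% were called higher and 36.7% lower. Of 9 elongation genes tested, 2 were called higher and 5 lower. The dehydratase Hacd3 was higher by 1.07 (SE 0.11), and Elovl1 and Elovl7, elongases of other chains, were lower by log2 fold changes of -2.91 (SE 0.35) and -2.78 (SE 0.38). Of 11 desaturation genes 2 were higher and 6 lower, the latter including Fads3 (-3.43, SE 0.31), Fads6 (-4.30, SE 0.32) and Scd2 (-1.23, SE 0.15), the stearoyl-CoA desaturase of neural tissue. Among 8 acyl-CoA synthetases Acsl1 was called higher (1.15, SE 0.11) and 5 were lower, Acsl3 among them (-1.27, SE 0.19). For the lists as wholes the median log2 fold changes were -0.78, -0.98 and -1.14, beside -0.11 for all genes tested.

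Acyltransferases divided more evenly, with 6 of 15 called higher and 8 lower. Agpat5 (1.34, SE 0.12) and Lpgat1 (0.82, SE 0.12) were higher, whereas Mboat1 (-4.50, SE 0.45) and Mboat2 (-3.81, SE 0.24), which favour unsaturated acyl chains, were lower. Of 19 genes of phospholipid head group synthesis, 3 were higher, led by the CDP-diacylglycerol synthase Cds1 (1.62, SE 0.13, mean levels of 19269 in Het rods and 5604 in Het retina), and 4 were lower. Of 8 peroxisomal genes 2 were higher, Scp2 (0.89, SE 0.13) and Hsd17b4 (0.55, SE 0.12). These lists had medians of -0.89, 0.27 and -0.15.

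Among 10 genes of uptake and binding 2 were higher and 5 lower. The higher ones were Adipor1 (1.12, SE 0.14), a receptor whose loss depletes the retina of DHA, and Vldlr (1.23, SE 0.13), a lipoprotein receptor, and the lower ones included Lrp1 (-4.69, SE 0.39) and the fatty acid carrier Fabp3 (-4.07, SE 0.35). Of 6 disc flippases and scramblases, Abca4 (1.31, SE 0.13), Atp8a2 (0.91, SE 0.14) and its partner Tmem30a (0.79, SE 0.20) were higher and Xkr8 (-1.72, SE 0.35) was lower. De novo synthesis had 3 of 8 higher, Me1 among them (0.90, SE 0.10), and 2 lower, Fasn (-1.42, SE 0.36) and Acacb (-2.21, SE 0.41). Mean levels in Het rods were 8.08 for Acacb, 7.68 for Elovl1 and 6.15 for Mboat1. Those lie under the filter level of 10, so such genes passed it largely through retina. Of 16 lipogenic transcription factors and their regulators 0 were higher and 4 lower, among them Insig1 (-2.71, SE 0.17). The medians of these 4 lists were -2.03, 0.15, 0.32 and 0.16. In KO rods against KO retina some lists stood otherwise. There 7 of 16 genes of the transcription factor list were called higher and 3 lower (median 0.57). Peroxisomal genes had 4 of 9 higher and 1 lower (median 0.30), and head group genes 6 of 19 higher and 3 lower (median 0.35). Over all genes tested 25.6% were higher and 36.4% lower. No test compared the lists between genotypes.

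**Figure D3:**
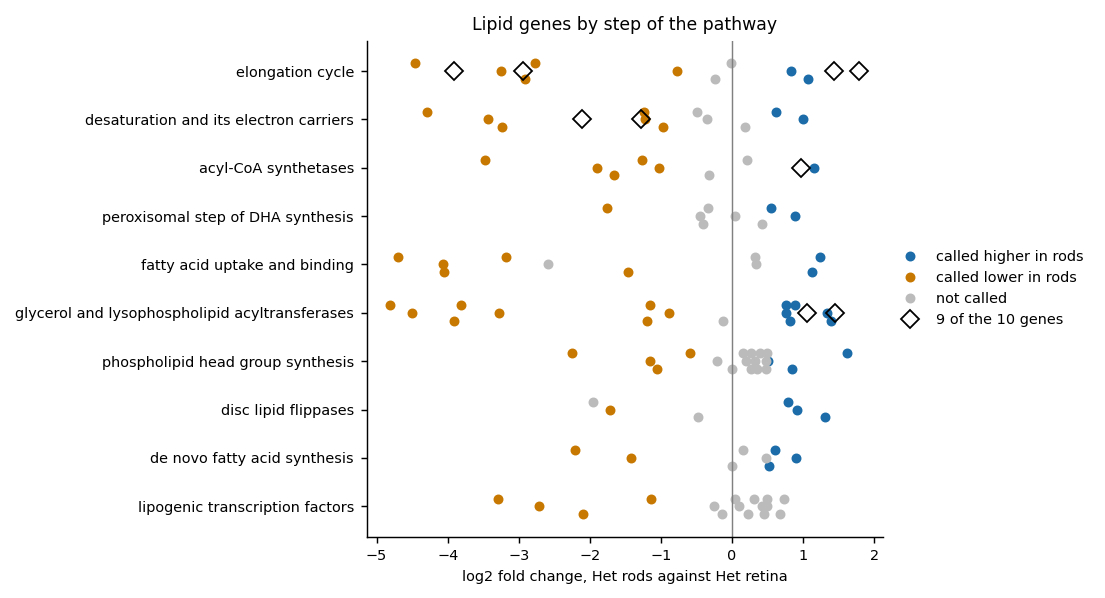
Fitted log2 fold change of Het rods against Het retina for each tested gene of 10 lipid lists (rows), coloured by its call, with open diamonds for 9 of the 10 genes placed in the list of their step and Mfsd2a left out. Each of the elongation and acyltransferase rows holds genes on both sides of 0, and the diamonds of Elovl4 (1.79) and Elovl5 (-3.91) lie near the ends of the elongation row.

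In KO rods against Het rods, none of the 9 genes tested was called (0 of 9), where 10.7% of 13144 genes were called higher and 2.34% lower. Mfsd2a was too low to be tested. With no threshold on size, Lpcat1 and Agpat3 had an adjusted p below 0.05, both higher in KO rods, beside 15.2% of all genes higher and 10.3% lower by the same rule. At an unadjusted p below 0.05 Fads1 joined them, which made 3 of the 9 genes and 5153 of all genes. Of all called genes 82.1% were higher in KO rods, or 67.1% when libraries were scaled by their totals alone. With the GC trend described below removed, 146 genes were called higher and 209 lower. The TMM-scaled level of Lpcat1 was 6224 ± 298 in Het rods and 8165 ± 843 in KO rods, and the fit of the 6 rod libraries gave a log2 fold change of 0.46 (SE 0.08, 95% interval 0.29 to 0.63, limma adjusted p = 0.00422). That of Agpat3 was 47685 ± 2614 and 58624 ± 4890, and that fit gave 0.37 on the log2 scale (SE 0.09, 0.17 to 0.56, limma adjusted p = 0.0135). All 3 KO libraries lay above all 3 Het libraries for both genes. Without KO rod replicate 2 the log2 fold change of Lpcat1 was 0.52 (limma adjusted p = 0.00375), past the size threshold, and without Het rod replicate 1 that of Agpat3 was 0.33 (limma adjusted p = 0.0661). In a fit of all 12 libraries together, which calls 0 genes and uses the scaling of the printed levels, the values were 0.39 (limma adjusted p = 0.191) for Lpcat1 and 0.30 (limma adjusted p = 0.27) for Agpat3.

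For the other 7 genes the KO effect in rods was small or could not be resolved. Fads1 had a log2 fold change of -0.32 (SE 0.14, 95% interval -0.62 to -0.02, limma adjusted p = 0.11), with every KO library under every Het library. Elovl4 (-0.13, interval -0.29 to 0.02) also had groups without overlap. Acsl6 (0.12, interval -0.03 to 0.27), Elovl2 (-0.05, interval -0.21 to 0.11), Fads2 (-0.10, interval -0.33 to 0.13), Elovl6 (0.07, interval -0.23 to 0.38) and Elovl5 (-0.14, interval -0.69 to 0.41) had intervals on both sides of 0. With the scaling of the 6 rod libraries, 5 of the 9 genes had groups without overlap (Elovl4, Fads1, Acsl6, Lpcat1 and Agpat3), where 44.7% of all genes tested did. In the deposited values and in the levels scaled over 12 libraries, Elovl2 and Fads2 had no overlap and Acsl6 did. Whether these 3 genes overlap thus depends on the scaling. The share of all genes without overlap was not taken for those values. For Elovl5, at 22 to 31 in rods, the interval is wide enough to hold a change past the size threshold.

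Across all genes, split into 10 bins of equal size by transcript GC content, the median log2 fold change of KO against Het rods went from -0.29 in the bin lowest in GC to 0.67 in the highest. Lpcat1 (52.6% GC), Agpat3 (54.2%), Fads1 (52.2%) and Fads2 (54.4%) lie in the upper range of GC content, and Acsl6 (44.9%) and the elongases (43.3% to 44.8%) in the lower. After each library was corrected for its GC trend, 2.7% of genes were called and again none of the 9. Agpat3 then had a log2 fold change of 0.07 (SE 0.06, limma adjusted p = 0.563) and Lpcat1 of 0.28 (SE 0.08, limma adjusted p = 0.0475). Fads2 was then lower at -0.42 (SE 0.10, limma adjusted p = 0.0194), Fads1 stood at -0.47 (SE 0.13, limma adjusted p = 0.0505) and Acsl6 was higher at 0.29 (SE 0.07, limma adjusted p = 0.0183). An adjusted p below 0.05 at any size was thus found for 3 of the 9 genes and for 7.46% of all genes, and the values of Agpat3, Lpcat1, Fads2 and Acsl6 moved by more than 1.5 times. Among the elongases, none with an adjusted p below 0.05 either way, Elovl6 went to 0.27, and Elovl2 (0.14), Elovl4 (0.08) and Elovl5 (0.03) changed sign. By the any-size rule 360 of all genes were then higher and 620 lower. What lies behind the GC trend was not tested.

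**Figure D4:**
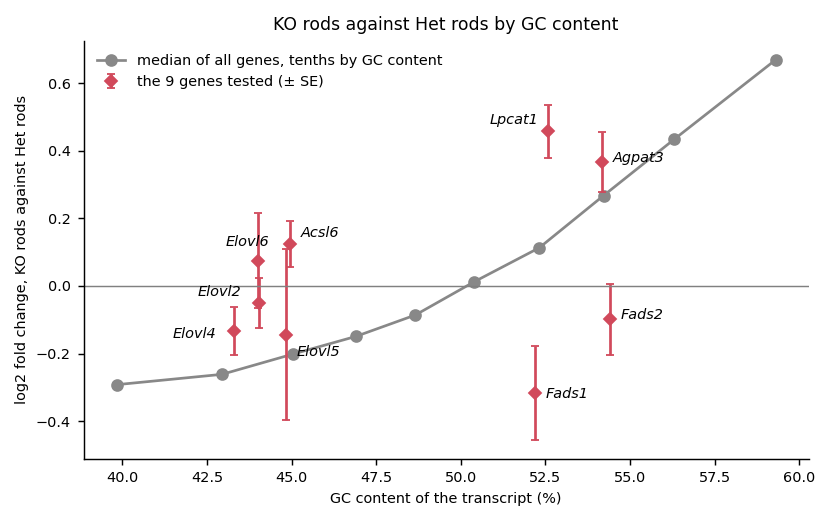
Fitted log2 fold change of KO rods against Het rods for the 9 genes tested (red, with bars of 1 SE) by the GC content of their transcript in percent, and the median of all genes in 10 bins by GC content (grey). The grey line rises from -0.29 to 0.67, Agpat3 lies near it, Lpcat1 above it, and Fads1 and Fads2 below it.

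Within the lysophosphatidylcholine acyltransferases Lpcat1 to Lpcat4, Lpcat1 held 71.0%, 72.3% and 71.9% of the summed level per kb in Het rods against 80.8%, 79.7% and 79.4% for KO. Lpcat2 held 27.0%, 26.0% and 26.8% in Het rods against 17.7%, 18.7% and 19.3% for KO. Neither share overlapped between genotypes, but they are parts of 1 sum, so 1 falls as the other rises. For single genes in rods, 44.7% of all tested had no overlap. In retina Lpcat1 held 69.7%, 72.15% and 67.9% in Het against 75.0%, 72.18% and 73.4% for KO, also without overlap. Agpat3 within its family did not overlap in rods either, at 92.7%, 93.0% and 93.6% in Het against 94.6%, 95.1% and 94.6% for KO. These shares do not depend on the scaling between libraries, and the GC trend was not removed from them (Lpcat2 has 47.0% GC and Lpcat1 52.6%). No test of a share was run, since a two-sided exact permutation test of 3 libraries against 3 cannot give a p below 0.1. The share of Acsl6 among its 5 synthetases was 54.1%, 56.2% and 44.8% in KO rods and 43.4%, 41.7% and 45.5% in Het rods, so that KO rod replicate 3 lay within the Het range. Acsl3 held 23.5% in that library, 9.75% and 8.13% in the other KO rods and 21.7% to 27.0% in Het rods.

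In whole retina none of the 10 genes was called between KO and Het, and 0% of 16984 genes were called. At an unadjusted p below 0.05 limma gave 142 genes and 0 of the 10. Log2 fold changes of 8 of the genes lay between -0.05 and 0.01, with Lpcat1 at 0.23 (SE 0.17, 95% interval -0.16 to 0.63) and Mfsd2a at 0.43 (SE 0.46, interval -0.64 to 1.49) beyond that. TMM-scaled groups overlapped for all 10 genes, where 3.56% of all genes tested had no overlap. A change of the size seen for Lpcat1 in rods thus lies within its interval in retina.

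An interaction term fitted to the 12 libraries compared the KO effect in rods with that in retina. None of the 10 genes was called and 0% of 17226 genes were, with 609 genes and 0 of the 10 at an unadjusted p below 0.05. For Agpat3 the difference was 0.30 (SE 0.22, limma adjusted p = 0.802), for Lpcat1 0.13 (SE 0.19, limma adjusted p = 0.852) and for Fads1 -0.38 (SE 0.26, limma adjusted p = 0.802). An effect particular to rods was not shown for any of them.

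**Figure D5:**
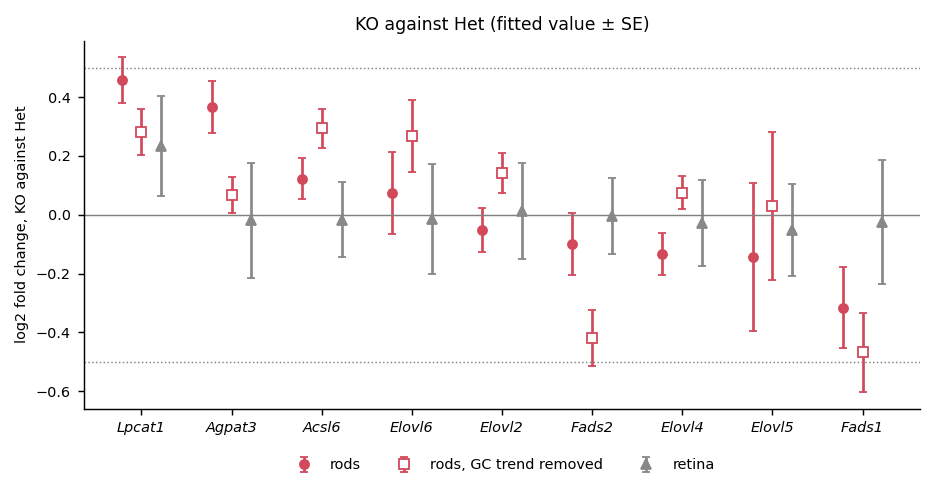
Fitted log2 fold change of KO against Het for the 9 genes tested in rods (filled circles), in rods with the GC trend removed (open squares) and in retina (grey triangles), with bars of 1 SE and dotted lines at the size threshold of 0.5. No value passes a dotted line; Lpcat1 in rods is highest at 0.46, and Agpat3 falls from 0.37 to 0.07 when the trend is removed.

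Of the other lipid genes, none was called lower in KO rods except Cept1, a choline and ethanolamine phosphotransferase (-0.79, SE 0.13, limma adjusted p = 0.00375). The transcription factor list had the most calls, with 7 of 16 higher and a median log2 fold change of 0.54, beside -0.03 for all genes. Over all genes tested, 10.7% were called higher and 2.34% lower, and 2.7% were called in either direction with the GC trend removed. They included Srebf1 (1.02, SE 0.24), the master regulator of fatty acid synthesis, Nr1h2 (1.23, SE 0.24), an oxysterol receptor, and Ppard (1.05, SE 0.23). In de novo synthesis Fasn, the fatty acid synthase (1.24, SE 0.15), and Acacb, an acetyl-CoA carboxylase, were called higher of 8 genes. Acacb had mean levels of 8.08 in Het rods and 30.6 in KO rods, so it passed the filter of 10 largely through KO. Elongation had 1 of 7 called higher, Tecr (0.66, SE 0.13), the last reductase of the cycle, and desaturation 0 of 11. The transcripts of the transcription factor list had a median GC content of 55.8%, against 49.5% for all genes. With the GC trend removed its count was 0 of 16 and its median 0.08, and only Cept1 (-0.53, SE 0.10, limma adjusted p = 0.00842) and Fasn (0.63, SE 0.10, limma adjusted p = 0.00517) remained called in the 10 lists. Acacb then had a log2 fold change of 1.29 (SE 0.42, limma adjusted p = 0.0781). Further higher calls before that removal were 2 of 6 acyl-CoA synthetases, 1 of 11 acyltransferases, 2 of 18 head group genes, 3 of 9 peroxisomal genes and 2 of 8 uptake genes, with 0 of 6 flippases. Among the peroxisomal calls, Acaa1b also passed the filter largely through KO, with mean levels of 9.6 in Het rods and 30.25 in KO rods.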

How the data were processed

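RNA was amplified from rod TRAP eluates and whole-retina lysates with a SMART-Seq V4 kit. The deposited signal values are gene counts that the authors had scaled within each fraction and rounded to whole numbers. The submitters' processing notes name CASAVA 1.8.2, HISAT2, DESeq2 and edgeR, with no role, and the build GRCm39, and the strand used in counting is not given in the sources used here. Because the values were scaled, no count test was run. Values were rescaled by TMM over the libraries of each fit (over all 12 for printed levels), genes reaching 10 in 3 or more libraries of a comparison were kept, and log2(value + 2) was tested with limma 3.58.1 (R 4.3.3, trend and robust) with Benjamini-Hochberg adjustment over all genes tested. Fold changes on this scale understate those of low genes. The procedure was tested on simulated data with known changes, whose libraries were independent and whose spread was set rather than taken from these data. With a GC trend put in, the fit without its removal called more unchanged genes than the fit with it. Python 3.11.15, NumPy 2.4.6, pandas 2.3.3 and matplotlib 3.10.9 did the rest.

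Reads per library were estimated from the steps between values. Length and GC content came from the longest transcript of GENCODE vM21 (GRCm38), used by gene name only. From each lipid list at most the 4 called genes with the largest change and the 2 with the highest mean were named, and for each of the 10 genes the 2 closest in pattern. The 10 genes and all lists were chosen with earlier results of these data known. Samples were grouped by the genotype and fraction in their labels. Same-numbered Het rod and Het retina libraries deviated together (correlations 0.46, 0.41 and 0.25), so their numbers were taken to pair them. The printed fold changes, SEs and p-values come from fits without this pairing, which entered only through the replicate block among the alternatives. The labels give no batch, and no protein sequences were used here. Alternatives were other scalings, pseudocounts, no filter, each library left out, a replicate block, removal of the GC trend, 1 fit of all libraries and removal of rod-depleted genes. Some genes that the naming rule picks are not reported here.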

Additional observations from a re-analysis of the deposited data

How the results depend on the processing

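Of 784 values of the 10 genes under the alternatives, 783 kept their side of the threshold, none that was called reversed, and 1 passed it (Lpcat1 in KO rods, 0.52 without KO rod replicate 2). Another 53 values that were not called differed in sign, 7 of them between KO and Het rods. The 10 genes gave 9 to 10 calls with a library left out in both rod and retina comparisons, since Mfsd2a could not be tested without a retina library, and 0 to 1 between KO and Het rods. With a library left out, genes called in all numbered 5405 to 8727 in Het rods against retina (9375 with all libraries), lowest without Het retina replicate 1, and 5912 to 9382 in KO (10033), lowest without KO retina replicates 1 (5912) and 2 (6509). Between KO and Het rods they numbered 882 (without Het rod replicate 1) to 1941, with 1102 without KO rod replicate 2, against 1714. They numbered 0 to 1 between KO and Het retina and 0 to 1 for the interaction, against 0. With the GC trend removed 355 genes were called between KO and Het rods, 403 with the replicate block as well, and 0 in the fit of all 12 libraries. The cause was not tested. The replicate block gave 9830 genes in Het rods against retina and changed no call of the 10 genes. Elsewhere the numbers were not shown to pair libraries (lowest correlation -0.01 for KO rods with KO retina, 0.02 for KO with Het rods and -0.58 for KO with Het retina), and the block gave 9879, 1845, 0 and 0 genes. The any-size counts and the lipid lists with the GC trend removed were chosen after seeing the data. Depth limits Elovl5 in rods and Mfsd2a throughout.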
